A study of Caenorhabditis elegans with 2 samples.

Results

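NK-class homeobox genes encode homeodomain transcription factors related to CEH-22, and 9 of them in *Caenorhabditis elegans* were examined for regions of CEH-22 ChIP-seq signal. They were chosen by gene name, out of 19973 protein-coding genes on the 6 nuclear chromosomes of the Ensembl annotation. The NK-2 genes *ceh-24*, *ceh-27* and *ceh-28* were kept apart from the other 6 members, *ceh-51*, *ceh-9*, *ceh-1*, *tab-1*, *mls-2* and *cog-1*. All values came from 1 group of 2 biological replicates of whole late embryos of mixed sex, strain OP389, with the allele unc-119(tm4063) III and the transgene wgIs389. The transgene carries CEH-22 with a GFP-FLAG tag at its C-terminus, the antibody is labelled ceh-22, and both replicates came from the same line. Chromatin was sonicated, and no other genotype, stage or treatment was analysed here, so the results describe where signal lay and how far the replicates matched. The data hold no expression values, so the cells behind a region are unknown, and cell markers could not be checked. A member's window reached from 5000 bp upstream of its 5' end to its 3' end, and a region was counted where its summit (the point the peak caller marked as its highest) lay in that window.

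CEH-22 belongs to the NK-2 class, a family of homeodomain proteins that includes Drosophila tinman and vertebrate Nkx2-5, and it is best known for activating muscle genes in the pharynx. NK-2 proteins recognise DNA with the core AAGTG, and TCAAGTG and TTAAGTG are the forms of the site searched for here. Homeobox genes are often regulated by other homeodomain proteins. The members act in different cells. *ceh-24* is expressed in a pharyngeal muscle type, vulval muscles and head motor neurons, *ceh-28* acts in the pharyngeal motor neuron M4, and *ceh-51* acts in the mesodermal MS lineage. *mls-2*, of the HMX type, acts in the postembryonic mesoderm and in glia, and *cog-1*, of the Nkx6 type, acts in taste neurons, where the microRNA lsy-6 represses it. *tab-1* is the homologue of Drosophila brain-specific homeobox.

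Sequences are shown first for the *ceh-24* region that held NK-2 sites within 100 bp of its summit and for the strongest regions of *ceh-24* and *tab-1*. The 200 bp before the 5' end of *ceh-27* are also shown, since the results below turn on these stretches. As printed, the *ceh-27* stretch begins outside its strongest region, beyond the outer edge of that region at 11665276, and ends at the summit. It thus shows only the upstream side of the region, and its site, near the printed start, lies beyond the edge. They were read from RefSeq on build ce11 (WBcel235), 5′ to 3′ on the strand of the gene, and capitals mark TCAAGTG or TTAAGTG on either strand (CACTTGA and CACTTAA when read on the other strand).
*ceh-24* region with its summit 2849 bp upstream (chrV:13810282-13810482, plus strand): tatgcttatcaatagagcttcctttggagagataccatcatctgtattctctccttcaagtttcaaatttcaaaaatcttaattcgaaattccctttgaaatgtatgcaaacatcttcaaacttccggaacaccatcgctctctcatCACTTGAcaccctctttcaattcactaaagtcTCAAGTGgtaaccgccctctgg
*ceh-24* region with its summit 4533 bp upstream (chrV:13808648-13808748, plus strand): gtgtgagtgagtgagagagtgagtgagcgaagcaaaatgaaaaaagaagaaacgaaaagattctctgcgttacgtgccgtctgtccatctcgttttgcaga
*ceh-27*, the 200 bp before its 5' end (chrV:11665103-11665302, minus strand): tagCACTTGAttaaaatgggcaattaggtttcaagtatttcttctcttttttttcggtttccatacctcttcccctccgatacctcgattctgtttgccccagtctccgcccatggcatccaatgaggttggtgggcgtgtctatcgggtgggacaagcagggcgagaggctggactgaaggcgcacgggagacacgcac
*tab-1* region with its summit 636 bp upstream (chrII:6802638-6802738, plus strand): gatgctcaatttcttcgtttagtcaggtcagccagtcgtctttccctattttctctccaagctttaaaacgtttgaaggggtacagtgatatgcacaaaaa

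No member had a peak in the thresholded list, the 285 peaks that passed the authors' test of reproducibility between replicates (IDR). By the same window 441 of 19973 protein-coding genes had one (2.21%), a share beside which a count of 0 in 9 genes is no result about the members. *ceh-22* itself, the gene that the transgene also carries, had 2. The thresholded peaks nearest to the members' 5' ends lay between 49.7 kb (*mls-2*) and 264 kb (*cog-1*) away, and *mls-2* and *ceh-1* had the same nearest peak, which ranked 224. All further results therefore concern the relaxed lists, which hold weaker regions and background by design: 19644 regions in the pooled list, made from both replicates, and 30000 in the list of each replicate. Strength is the signal value that the authors gave each region, on a scale not stated, and rank 1 is the strongest region of a list. The read depth is unknown.

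In the pooled list 8 of the 9 members had a region, against 74.8% of protein-coding genes, and *ceh-28* was the exception. The 8 genes held 20 regions in all. Signal values of these regions were between 9.39 and 24.5, whereas the lowest value of the thresholded list was 32.2 and the median of the pooled list was 12.03. Their −log10 q values, also the authors', reached 0.704, below the lowest value of 1.35 in the thresholded list. Over the windows of all members there were 0.305 pooled regions per kb, compared with 0.205 over the windows of all protein-coding genes. The NK-2 members were at 0.226 and the other members at 0.344 per kb. Of the 20 summits, 13 lay upstream of the member's 5' end and 7 downstream. For 16 the nearest protein-coding 5' end was that of the member, and for 4 it was that of another gene. As the windows reached 5000 bp upstream, most window bases were upstream in every member but *cog-1*. No share over all genes was set beside these counts, so they show no preference for a side.

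**Figure D1:**
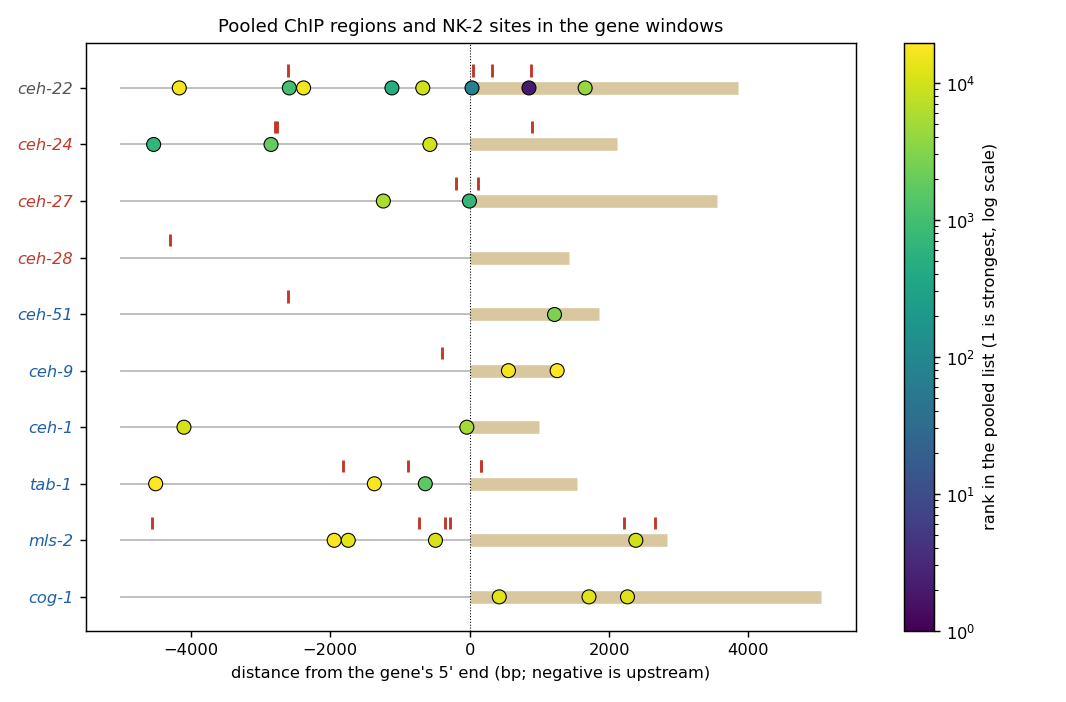
Windows of *ceh-22* (grey name), the NK-2 members (red names) and the other members (blue names), drawn by distance in bp from the 5' end. Circles are summits of pooled regions coloured by rank on a log scale, broad bars are gene spans and red ticks are NK-2 sites. The *ceh-22* window holds ranks 2 and 73, whereas the strongest member regions rank 656 (*ceh-24*) and 716 (*ceh-27*), and *ceh-28* has none.

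*ceh-24* (WBGene00000447, V, 13813231 to 13815350, plus strand) had the strongest region of any member. Its 7120 bp window contained no other protein-coding gene and held 3 pooled regions, all intergenic and all upstream. The strongest (V, 13808526 to 13808869) had its summit 4533 bp upstream, a signal value of 24.5 and rank 656 of the pooled list. In replicate 1 a summit 29 bp away had a value of 16.05 and rank 242, which is within the 285 strongest regions of that list. In replicate 2 the strongest summit within 200 bp lay 165 bp away, with a value of 13.5 and rank 2584. By the limit of 200 bp both replicates thus held the region, although at quite different ranks. With a limit of 100 bp replicate 2 would have no match. The pooled summit was nearer to the 5' end of *swan-1*, at 1461 bp, than to that of *ceh-24*. The gene that the region belongs to therefore cannot be told from position.

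The next *ceh-24* region (V, 13810210 to 13810553) was closer to the 5' end of *ceh-24* than to that of any other protein-coding gene. The ncRNA gene F55B12.15 lay within 200 bp of its summit. It was the only pooled region of a member with an NK-2 site within 100 bp of the summit. The summit lay 2849 bp upstream, with a signal value of 18.8 and rank 1809. In replicate 1 a summit 40 bp away had a value of 6.11 and rank 4540, and in replicate 2 a summit 1 bp away had a value of 10.7 and rank 6831. Both ranks were far below the 285 strongest regions of each replicate list. They were closer to each other than those of any other member region in the top 10% of the pooled list. The first sequence above shows 2 TCAAGTG sites on opposite strands, 32 bp apart from centre to centre, at 50 bp and 82 bp from the summit. Of 19634 nuclear pooled regions, 37 (0.188%) held 2 or more sites within 100 bp of the summit. Of these, 6, this region included, ranked at least as high. This pair was singled out after its values were seen. The last *ceh-24* region, 570 bp upstream, ranked 10075 and had a match in replicate 2 alone (rank 18244).

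*ceh-27* (WBGene00000449, V, 11661549 to 11665102, minus strand) had a region at its very 5' end. The summit of this region (V, 11664933 to 11665276) lay 3 bp upstream, with a signal value of 23.8 and rank 716 in the pooled list. The replicates differed widely there. Replicate 2 had a summit 107 bp away with a value of 19.6 and rank 425, and replicate 1 a summit 47 bp away with a value of 3.61 and rank 16701. The stretch from 100 bp before to 100 bp after the summit had a GC content of 56.7%, the highest of the 20 member regions, which averaged 37.1%. All nuclear pooled regions averaged 39.9% and thresholded nuclear peaks 48.9%. The part of GC content in the signal was not tested. No NK-2 site lay within 100 bp of the summit. There was a TCAAGTG centred 194 bp upstream of the 5' end, printed above and outside the region. A TTAAGTG centred 121 bp downstream, in an intron, lay inside the region. Among all protein-coding genes, 4.12% had an NK-2 site in the 200 bp before the 5' end, and *ceh-27* was the single member that did. A further region, 1238 bp upstream, ranked 5546 and was matched in replicate 2 alone, at rank 2441.

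*ceh-28* (WBGene00000450, X, 13074673 to 13076092, plus strand) had no pooled region in its window of 6420 bp. The nearest pooled summit lay 12187 bp downstream of its 5' end and ranked 7213. The replicate lists were longer and held 3 regions of replicate 1 and 2 of replicate 2 in the window, with best ranks of 9843 and 27078. Those best regions lay 3539 bp upstream and 1273 bp downstream of the 5' end, so they were not the same place. The single NK-2 site of the window was 4294 bp upstream, in an intron of *cpx-2*. At the relaxed threshold of the pooled list no CEH-22 region was therefore detected at *ceh-28*, which at unknown depth does not show that there is none.

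Of the other members, *tab-1* (WBGene00006380, II, 6803324 to 6804863, plus strand) ranked highest. Its best region (II, 6802516 to 6802859) had its summit 636 bp upstream, in intergenic DNA, with a signal value of 19.3 and rank 1627. This region too was strong in 1 replicate alone: replicate 2 had its summit at the same base, at a value of 17.9 and rank 653, and replicate 1 a summit 147 bp away with a value of 2.60 and rank 27517. The other 2 regions of *tab-1*, 1367 bp and 4504 bp upstream, ranked 17579 and 19347. Replicate 1 had its own best *tab-1* region elsewhere, 2899 bp upstream at rank 5110, where the pooled list had none.

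*ceh-51* (WBGene00013583, V, 18874133 to 18875982, plus strand) had a single pooled region (V, 18875167 to 18875510), 1206 bp downstream of its 5' end in an intron. Its span overlaps *emb-4*, whose intron also covers the summit. The signal value was 17.1 and the rank 2752. Replicate 2 had the summit at the same base with rank 3850, and replicate 1 a summit 98 bp away with rank 19277.

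The remaining 4 members had weak regions. At *ceh-1* (WBGene00000428, X, 4653167 to 4654157, minus strand) the best summit was 40 bp upstream of the 5' end, with a signal value of 14.5 and rank 5185. It had a match in replicate 2 (rank 3650) and none in replicate 1. *mls-2* (WBGene00003377, X, 4758804 to 4761640, minus strand) had more pooled regions than any other member, 4, with ranks from 9702 to 17874. At least 4 regions were found at 11.6% of protein-coding genes. The *mls-2* regions 1741 bp and 1943 bp upstream overlap each other but were counted separately in all counts here. None of the *mls-2* regions was matched in both replicates. *cog-1* (WBGene00000584, II, 14902493 to 14907533, plus strand) had 3 regions inside the gene, 2 in introns and 1 in a coding exon, with ranks from 11589 to 12260 and signal values between 11.2 and 11.4. The one 425 bp downstream of the 5' end was matched in both replicates, at ranks 11344 and 8931. *ceh-9* (WBGene00000434, I, 565284 to 566588, minus strand) had 2 regions within its span, at ranks 16239 and 18892 and signal values of 10.1 and 9.49. The lowest value of the whole pooled list was 9.33, so both lay near its floor, and each was matched in a single replicate.

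The replicates were compared at all 20 member regions by the strongest replicate summit within 200 bp. In replicate 1, 11 regions had a match (55%), and in replicate 2, 17 did (85%). Over all nuclear pooled regions these shares were 50.2% and 81.9%. Matches in both were found for 8 regions (40%, against 35.4%), in replicate 2 alone for 9, in replicate 1 alone for 3 and in neither for 0. The shares at the members were thus close to those of the whole list. The 8 regions fell at 6 genes, *ceh-24*, *ceh-27*, *ceh-51*, *ceh-1*, *tab-1* and *cog-1*, and by the same criterion 40.2% of protein-coding genes had a region in both. For 6 of the 8 the rank was higher in replicate 2, compared with 50.5% of all regions with a match in both. The exceptions were the 2 *ceh-24* regions that ranked higher in replicate 1.

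**Figure D2:**
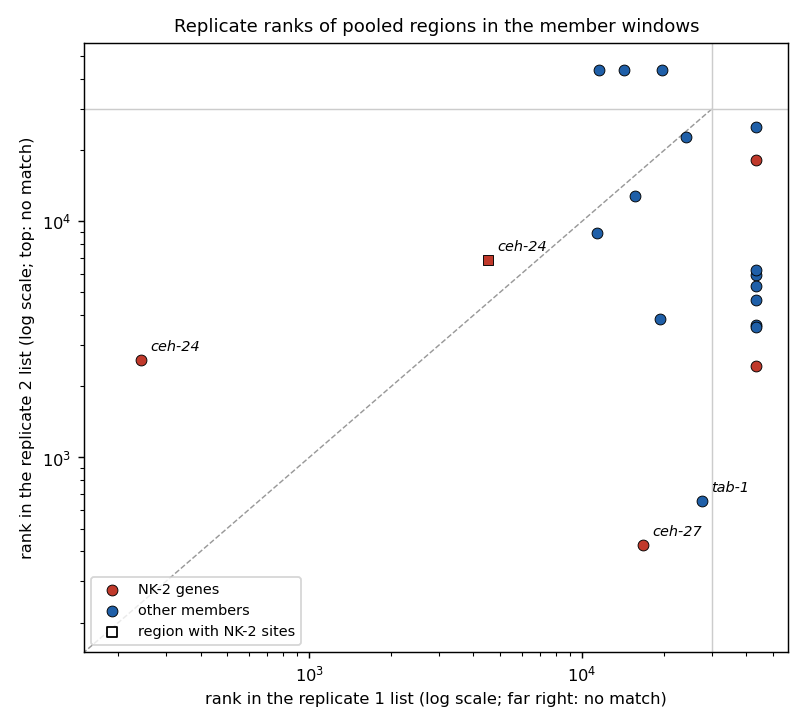
Rank of the matched summit in replicate 1 (x axis) and replicate 2 (y axis), both on log scales, for the 20 pooled regions in the member windows. Regions with no match within 200 bp are drawn beyond the grey lines, and the dashed line marks equal ranks. Named points are the 4 regions in the top 10% of the pooled list. The square is the region with NK-2 sites within 100 bp of its summit. The *ceh-27* and *tab-1* points lie at ranks 425 and 653 in replicate 2 and beyond 10000 in replicate 1, whereas the *ceh-24* regions lie nearer to the line.

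Each member was also placed among all protein-coding genes by the rank of its strongest pooled region. Of the 14944 genes with a region, *ceh-24* stood at 6.56% counted from the strongest, *ceh-27* at 7.11%, *tab-1* at 15.5%, *ceh-51* at 25.01% and *ceh-1* at 42.5%. *mls-2* stood at 67.3%, *cog-1* at 75.4% and *ceh-9* at 91.3%. When each region was given only to the gene with the nearest 5' end, *ceh-24* lost its strongest region to *swan-1* and stood at 13.5%, behind *ceh-27* at 5.45% and *tab-1* at 12.1%. By the median region of a gene in place of the strongest, *tab-1* stood at 94.0%, *ceh-24* at 3.71% and *ceh-27* at 7.93%. Only *ceh-24*, *ceh-27* and *tab-1* had a region in the top 10% of the pooled list, which is 3 of 9 members against 13.7% of protein-coding genes. This difference was not tested. The order depended on the replicate. For each replicate the best region of its own full list was used, among 17457 genes with a region in replicate 1 and 17530 in replicate 2. That region need not be the place of the pooled one. In replicate 1 the best *ceh-27* region lay 3189 bp downstream of the 5' end, and the best *cog-1* region 2009 bp downstream. In replicate 1 alone *ceh-24* stood at 2.03%, *tab-1* at 35.2%, *cog-1* at 56.6%, *ceh-28* at 57.2%, *mls-2* at 63.8%, *ceh-27* at 66.4%, *ceh-1* at 76.0%, *ceh-51* at 84.8% and *ceh-9* at 85.4%. In replicate 2 alone *ceh-27* stood at 3.73%, *tab-1* at 5.73%, *ceh-24* at 21.5%, *mls-2* at 28.4%, *ceh-1* at 28.9%, *ceh-51* at 30.1%, *cog-1* at 38.7% and *ceh-9* at 41.997%. *ceh-24* led in replicate 1 alone, and *ceh-27* led in replicate 2 alone. *ceh-28*, which had regions in the replicate lists, stood last in replicate 2, at 97.4%. Set against genes with the same number of pooled regions *ceh-27* stood at 4.58%, *ceh-24* at 9.02%, *ceh-51* at 10.6% and *tab-1* at 22.8%. *mls-2* moved to 92.5% and *cog-1* to 93.1%.

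**Figure D3:**
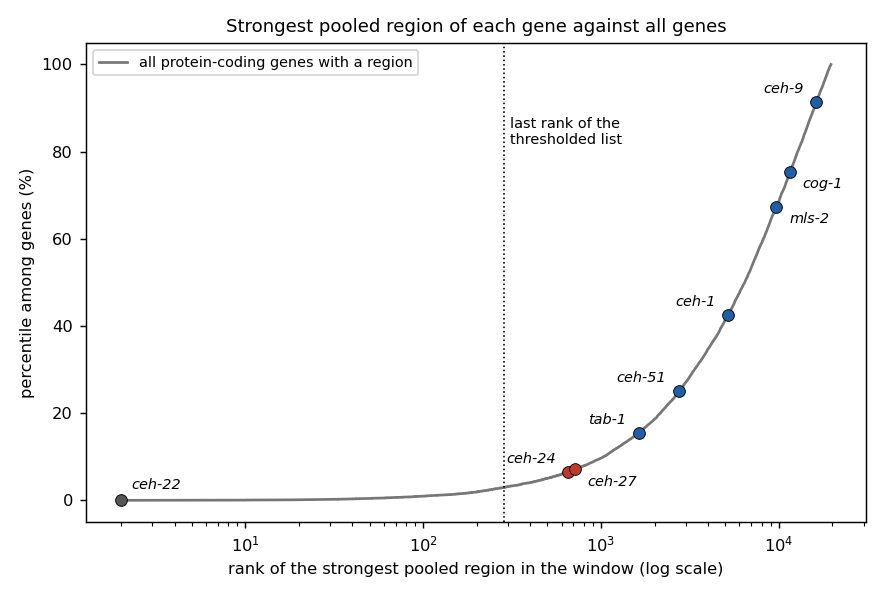
Rank of the strongest pooled region in each window (x axis, log scale) against its percentile among the 14944 protein-coding genes with a region (y axis). The grey line is all genes, red points are NK-2 members, blue points other members, the grey point is *ceh-22*, and the dotted line marks rank 285, the last rank of the thresholded list. All 8 members with a region lie to the right of the dotted line, with *ceh-24* and *ceh-27* at 6.56% and 7.11%.

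Most NK-2 sites in the windows lay more than 100 bp from a pooled summit. TCAAGTG and TTAAGTG, searched on both strands, occurred 18 times in the 9 windows (9 times each), or 0.274 per kb, compared with 0.235 per kb over the nuclear genome. Only the 2 sites of the *ceh-24* pair were within 100 bp of a pooled summit (11.1%, compared with 5.20% of all sites in the genome). Bases within 100 bp of a pooled summit made up 6.04% of the member windows and 3.94% of the nuclear genome. *mls-2* had the most sites, 6, a number reached by 3.54% of protein-coding genes, and none of them was within 100 bp of a pooled summit. The nearest was 136 bp from the summit of the region 490 bp upstream, and inside that region, since the regions were 344 bp wide. The *mls-2* site 2213 bp downstream lay across the edge of another region. At *ceh-27* the site 121 bp downstream lay inside the strongest region of that gene. *ceh-1* and *cog-1* had no site in the window, as did 19.9% of protein-coding genes. With 1 of the 20 regions holding a site within 100 bp of its summit (5%), the members were close to the 6.06% of all nuclear pooled regions. By the same limit 1 of 9 genes had such a region, against 9.15% of protein-coding genes. The core AAGTG alone was within 100 bp of the summit in 9 of 20 regions (45%) and in 41.1% of all.

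For comparison with the *ceh-24* pair, the 3 sites within 100 bp of a pooled summit at *ceh-22* and all sites within 200 bp of one at *ceh-27* and *mls-2* are shown with 10 bp to each side, 5′ to 3′ on the strand where the site reads TCAAGTG or TTAAGTG (in capitals), and so is the overlapping pair inside *tab-1*.
*ceh-22*, 878 bp downstream (chrV:10672783-10672809, plus strand): ttcatcggctTCAAGTGcatcagcggc
*ceh-22*, 43 bp downstream (chrV:10671948-10671974, minus strand): ctaacaataaTCAAGTGtagtgctcga
*ceh-22*, 2606 bp upstream (chrV:10669299-10669325, minus strand): atcaaactccTCAAGTGcttcttcact
*ceh-24*, 2799 bp upstream (chrV:13810419-13810445, minus strand): aaagagggtgTCAAGTGatgagagagc
*ceh-24*, 2767 bp upstream (chrV:13810451-13810477, plus strand): cactaaagtcTCAAGTGgtaaccgccc
*ceh-27*, 121 bp downstream (chrV:11664968-11664994, minus strand): agtttttaacTTAAGTGagttttgagt
*ceh-27*, 194 bp upstream (chrV:11665283-11665309, plus strand): cccattttaaTCAAGTGctaccagctg
*mls-2*, 2213 bp downstream (chrX:4759414-4759440, plus strand): tgggtctccgTCAAGTGcagcttctgt
*mls-2*, 354 bp upstream (chrX:4761981-4762007, plus strand): tctaattcgtTTAAGTGgattactatg
*tab-1*, 166 bp downstream (chrII:6803477-6803503, plus strand): tcatcgtCACTTAAGTGgttgtttatt

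The *ceh-22* sites shown and the *ceh-24* pair were TCAAGTG, while *ceh-27* and *mls-2* each had both forms in or near a region. Over whole windows *ceh-24* and *tab-1* also held both forms, so the form did not separate NK-2 genes from other members. In *tab-1* the sites on both strands overlap in the run CACTTAAGTG, which was counted as 2 sites, and no pooled summit lay closer than 799 bp.

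Among the member regions few lay in coding exons. By summit, 11 of 20 were intergenic (55%, against 33.6% of nuclear pooled regions), 6 were in introns (30%, against 30.7%), 2 in coding exons (10%, against 30.6%) and 1 in an untranslated exon (5%, against 5.11%). The whole list includes regions outside gene windows, and these differences were not tested. Short structural RNA genes (tRNA, snRNA, snoRNA and rRNA) were within 200 bp of 0 of the 20 summits and of 1.96% of all nuclear pooled regions. Genes annotated as ncRNA lay within 200 bp of 5 summits (25%, against 7.71%). These were the *ceh-24* region with the site pair (F55B12.15), the *ceh-27* region at the 5' end (F46F3.22) and 3 *mls-2* regions. Of the *mls-2* regions, 2 overlap each other and share C39E6.10, while the other lay near C39E6.9. A part of these genes in the signal was not tested.

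Other homeobox genes were counted in the same way to see where the members stand. No gene of the 3 lists below had a thresholded peak, against 2.21% of all protein-coding genes. The shares of all protein-coding genes to set beside the other counts of each list were 74.8% with a pooled region and 40.2% with a region matched in both replicates. For a region in the top 10% the share was 13.7%. Among 9 other NK-like homeobox genes, all 9 had a pooled region, 6 a region matched in both replicates and 2 a region in the top 10%, with a median gene at 40.7%. For the 9 members the counts were 8, 6 and 3 and the median 42.5%, with *ceh-28* set behind all genes with a region. The strongest of that list were *ceh-5*, whose summit 4820 bp upstream at rank 608 was only 367 bp from the 5' end of *eat-16*, *vab-15*, the homologue of vertebrate Msx (886 bp upstream, rank 1687), and *ceh-2*, the homologue of Drosophila empty spiracles (1421 bp downstream, rank 2268). Among 7 Hox and ParaHox genes, which pattern the body axis, 6 had a pooled region, 4 a region matched in both replicates and 1 a region in the top 10%, with a median of 53.4%. *lin-39*, the Hox gene of the mid-body, had the strongest (1630 bp downstream, rank 1471, with ranks 2323 and 3288 in replicates 1 and 2), followed by *pal-1*, the Caudal homologue, at rank 5999. *php-3* and *nob-1* shared their strongest region, at rank 7004.

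Of 10 genes known to act with a member, 8 had a pooled region, 5 a region matched in both replicates and 3 a region in the top 10%, with a median of 35.99%. *zag-1*, a zinc finger homeobox gene that acts with *ceh-28* in the M4 neuron, had the strongest (3595 bp downstream of its 5' end, rank 724, with ranks 12796 and 743 in replicates 1 and 2). *unc-17*, the vesicular acetylcholine transporter gene, followed at rank 1638, with a summit 5721 bp downstream, in a span shared with *cha-1*. *tbx-35*, the T-box gene upstream of *ceh-51*, had rank 1960, at a summit 247 bp from the 5' end of *ZK177.1*. *dbl-1*, the BMP-like ligand gene downstream of *ceh-28*, had a single region at rank 13746, and neither *ceh-36*, an Otx-type homeobox gene of taste and olfactory neurons, nor lsy-6 had a pooled region. The ranks of the members overlapped those of each list over most of the range, and no list was tested against another.

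**Figure D4:**
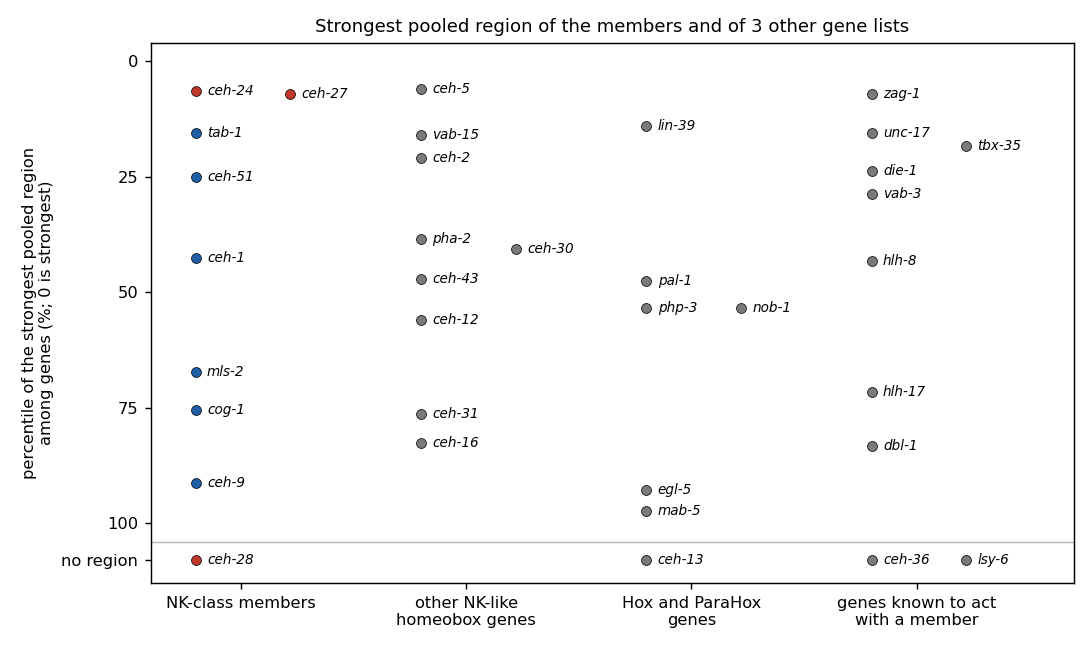
Percentile of the strongest pooled region among protein-coding genes (y axis in %, strongest at the top) for the 9 members (red, NK-2; blue, others) and the 3 other lists (grey). Points are offset sideways where they would overlap, and genes without a pooled region are below the line. The members spread from 6.56% to 91.3%, over a range similar to that of the other lists.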

How the data were processed

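CEH-22 ChIP-seq of 2 biological replicates was analysed from the authors' peak lists on build ce11. The deposited listing of files says that relaxed lists were called against a control, per replicate and for both together, and that IDR gave the thresholded list. The signal value is a score from the authors' caller with no stated scale, and the −log10 q values were used as deposited. The sources used here name no aligner or caller. The ce10 lists, signal tracks, control samples and protein sequences were not used here.

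Genes came from Ensembl release 115 (WBcel235), and the 5' end of a gene was that of its whole annotated span. Ranks, replicate matches (summits within 200 bp) and NK-2 sites (within 100 bp of a summit) were computed with Python 3.11.15, pandas 2.3.3 and numpy 2.4.6, after a check on simulated data. Coordinates are 1-based. No test was made, since there is 1 group and no contrast. Biological replicates came from separate samples per the labels. Members, lists and alternatives were chosen with earlier results of these data known. The text names all members, their strongest regions, every member region in the top 10% of the pooled list, and, in each other list, the 3 genes with the strongest region (*dbl-1*, *ceh-36*, lsy-6 and the ncRNA genes were added after values were seen). Alternatives were other windows, assignments, match distances, site definitions and single replicates.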

Additional observations from a re-analysis of the deposited data

How the results depend on the processing

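Counts of members and regions depended on the window and on the replicate. Members with a peak among a replicate's 285 strongest regions ranged from 0 (without replicate 1) to 1 (without replicate 2, *ceh-24*). For the other single-replicate values each replicate's list was shortened to its 19644 strongest regions, the length of the pooled list, so they differ from the values of the full replicate lists in the report. Members with a region in the top 10% of these shortened lists ranged from 1 to 2, against 3 in the pooled list. With windows that ended at the 5' end, 5 members had a pooled region and 13 regions remained, and with windows from 1000 bp upstream 12 regions remained. With replicate summits within 100 bp, 3 members had a region in both replicates, and with only the 285 strongest of each replicate 0 did. Member regions with an NK-2 site numbered 0 with windows from 1000 or 2000 bp upstream, 3 with windows from 10000 bp, 0 with sites within 50 bp of the summit, 3 within 150 bp and 9 with the core AAGTG. The median percentile of the NK-2 genes, 7.11%, was 62.4% and 63.9% with windows from 1000 and 2000 bp, which leave out both stronger *ceh-24* regions, and lay between 24.7% and 67.0% in the shortened lists of single replicates. Of the alternative values of counts and medians, 16 moved and 52 did not. For single genes 12 moved and 65 did not, and none reversed, since no value has a direction. The causes were not tested. Ranking by the p column was not run, since that column holds a constant. No paired analysis was possible because there is 1 group. Unknown read depth limits what a missing region can show.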

Other observations

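Between 5000 and 10000 bp upstream, outside the windows of the report, 9 further pooled regions lay at 5 members. None was in the top 10% of the pooled list, and 4 were matched in both replicates, against 35.4% of all nuclear pooled regions. An NK-2 site was within 100 bp of the summit in 2 of these 9 regions, against 6.06% of all nuclear pooled regions. At *ceh-27* this was an intergenic region 9771 bp upstream (V, 11674701 to 11675044, signal value 18.4, rank 2013), which ranked 1714 in replicate 1 and 12012 in replicate 2 and was nearer to the 5' end of *ape-1*, at 1065 bp. At *ceh-1* it was a region 5728 bp upstream (X, 4659713 to 4660056, rank 5222) in an intron of *nhr-45*, a nuclear hormone receptor gene, with rank 3164 in replicate 1 and no match in replicate 2. Another *ceh-1* region, 8485 bp upstream in intergenic DNA, ranked 718 in replicate 1 and 17526 in replicate 2.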
